A study of Homo sapiens with 12 samples.

Results

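The HOX genes are the homeobox genes of the HOXA, HOXB, HOXC and HOXD clusters, and all 39 that the files list by such a symbol were followed, among 20042 listed genes. HOXA had 11 members, HOXB 10, HOXC 9 and HOXD 9. The HOXB cluster carried nearly all HOX RNA in these cultures. HOXB2 and HOXB3 were the highest members. HOXB5 to HOXB8 were higher than in vehicle cultures on both days with one toxicant, F-53B, and HOXB5 and HOXB7 were so with both toxicants.

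RNA was measured in 12 libraries of H9, an established human embryonic stem cell line, during differentiation towards heart cells by a modified published protocol. The cultures were sampled on day 8 and day 12. On each day there were 2 libraries of cultures given DMSO, the vehicle, 2 of cultures given 60 µM F-53B and 2 of cultures given 60 µM PFOS, with the toxicants present from the start of differentiation to the end. PFOS is a perfluoroalkyl sulfonate, and F-53B is a polyfluoroalkyl ether sulfonate that differs from it by an ether oxygen and a terminal chlorine. The labels name the cell source as cardiac and do not say whether the replicates of a group were grown apart. A p-value here therefore reflects how far these particular samples spread, part of which can be technical. All groups derive from 1 cell line. TNNT2, the cardiac troponin T gene and a defining marker of heart muscle cells, was at 1246 and 1473 FPKM in the day 8 DMSO libraries and at 2028 and 2041 in those of day 12.

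HOX proteins are transcription factors that give cells their position along the head-to-tail axis. Genes at the 3′ end of a cluster, with low paralogue numbers, are switched on first and furthest forward, and genes towards the 5′ end follow later and further back, a rule known as collinearity. In the heart field, members of the first paralogue groups mark the posterior part of the second heart field and respond to retinoic acid, and middle-numbered members are typical of trunk mesoderm. HOX proteins bind DNA together with the TALE cofactors of the PBX, MEIS and PKNOX families.

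In GENCODE 29 (GRCh38), HOXB lies on the minus strand of chromosome 17, from HOXB1 at 48528526 to HOXB13, which ends at 48729178. HOXC lies on the plus strand of chromosome 12 from 53938765 to 54056030, HOXA on chromosome 7 from 27092993 to 27200106 and HOXD on chromosome 2 from 176092891 to 176190907.

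Of the 39 members, 36 had values. HOXA6, HOXC12 and HOXD12 had no value in any library. Values are FPKM, as deposited, which scale fragment counts to transcript length and library size and so set genes side by side per length. Depth per library is unknown, so no counting interval is given, and values were written to 2 decimals, the lowest above 0 being 0.01. The test was run on genes with at least 1 FPKM in at least 2 of the 12 libraries, which 10 members passed: HOXB1 to HOXB8, HOXC6 and HOXC8. HOXC6 and HOXC8 passed only through libraries of cultures given F-53B, and HOXB1 only through 1 DMSO and 1 PFOS library of day 8. The other 26 stayed under 1 FPKM in every library, 18 of them under 0.1 FPKM, and did not enter the test. A fit with no minimum is given for some of them further on.

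**Figure D1:**
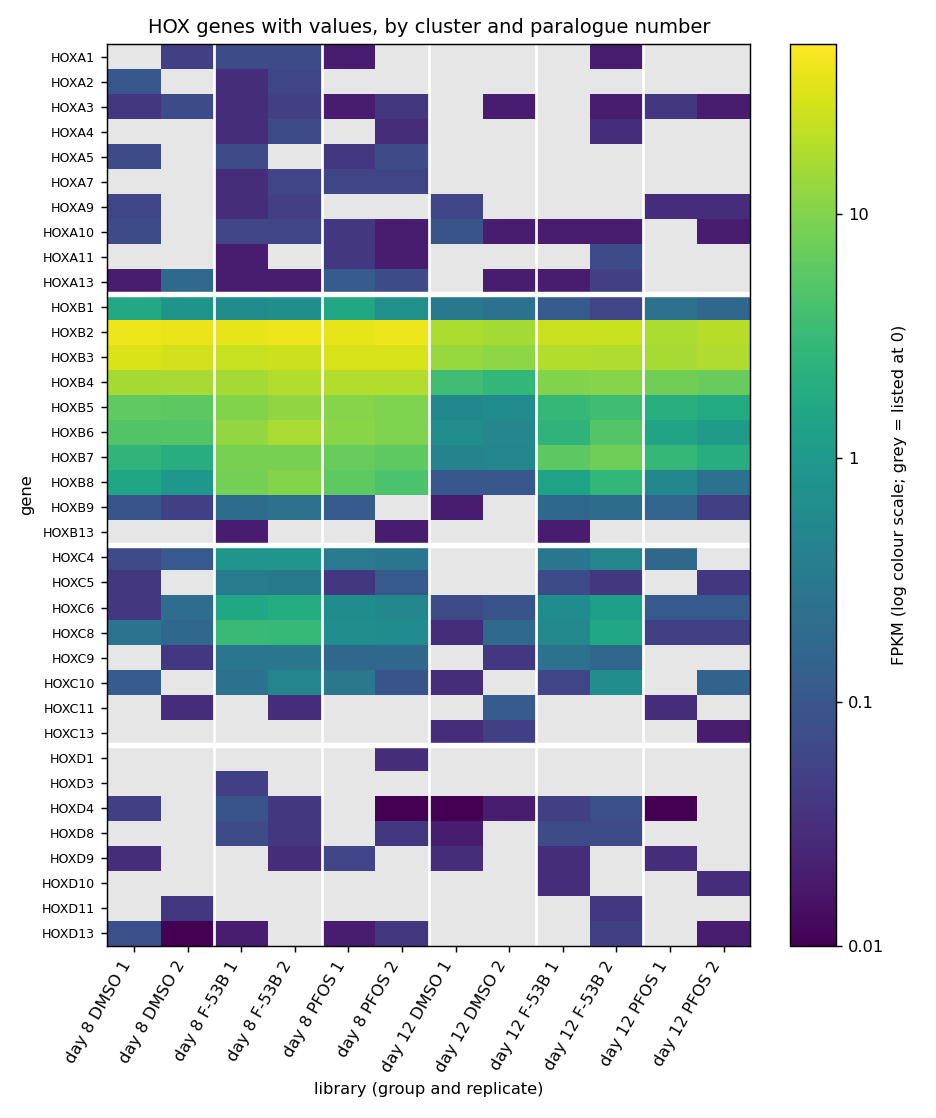
FPKM of the 36 HOX genes with values, one row a gene and one column a library (2 replicates a group), on a log colour scale, with grey where a gene was listed at 0. HOXB2 to HOXB4 were above 1 FPKM in all 12 libraries, HOXC6 and HOXC8 passed 1 FPKM only under F-53B, and HOXA and HOXD genes stayed under 0.2 FPKM.

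In DMSO cultures at day 8, the level fell in order along the HOXB cluster from HOXB2 to HOXB8. HOXB1, which marks the early hindbrain and posterior heart progenitors, was at 1.73 and 0.83 FPKM. HOXB2 was at 40.09 and 38.36 FPKM and HOXB3 at 30.97 and 27.99. HOXB4, the first of the middle group, was at 16.08 and 16.21 FPKM. The next members stood lower, with HOXB5 at 6.30 and 5.77 FPKM, HOXB6 at 5.0 and 5.20, HOXB7 at 2.67 and 2.01, and HOXB8 at 1.49 and 0.94. No neighbours in this order from HOXB2 to HOXB8 overlapped in their ranges, although the gap between HOXB5 and HOXB6 was narrow. HOXB9 and HOXB13, at the far end, reached at most 0.09 FPKM. HOXB made up 99.0% and 99.05% of all HOX FPKM in these libraries.

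From day 8 to day 12, HOX RNA fell in DMSO cultures. HOXB2 to HOXB8 were all lower at day 12 at an adjusted p under 0.05, while 18.2% of the 14080 tested genes were. HOXB1 passed as lower too, but it entered the test only through day 8 libraries and is not counted beside that share. The summed HOXB level went from 104.4 and 97.36 FPKM to 36.76 and 32.58. These are bulk libraries, in which fewer cells of a type and less RNA per cell cannot be told apart. HOXB2 was at 17.43 and 16.10 FPKM at day 12, a change of −1.18 on the log2(FPKM + 1) scale on which all log2 changes here are given (SE 0.088, adjusted p = 2.346e-06). HOXB3, at 13.63 and 11.72 FPKM, changed by −1.16. HOXB4 was at 3.62 and 2.78 FPKM (log2 change −2.04, SE 0.109, adjusted p = 2.77e-07).

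HOXB5 to HOXB8 came down to under 1 FPKM. At day 12, HOXB5 was at 0.54 and 0.61 FPKM in DMSO, HOXB6 at 0.66 and 0.52, HOXB7 at 0.45 and 0.50 and HOXB8 at 0.10 and 0.10. None of the 4 overlapped its day 8 range. As ratios of group means with nothing added, day 8 stood above day 12 by 10.5 times for HOXB5, 8.64 for HOXB6, 4.93 for HOXB7 and 12.2 for HOXB8, against 2.34 for HOXB2, 2.33 for HOXB3 and 5.05 for HOXB4. The log2 changes with 1 added, −2.16, −1.94, −1.17 and −0.999 for HOXB5 to HOXB8, understate these low genes. HOXB1 was at 0.31 and 0.25 FPKM at day 12 and fell by 0.80 on that scale (adjusted p = 0.00897), a call that did not hold without DMSO replicate 2 of day 12 (adjusted p = 0.05711, with 0.003343 to 0.05711 over its alternatives).

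Markers moved with this fall. Over 8 cardiomyocyte genes, the summed level went from 5421 and 7182 FPKM at day 8 to 9941 and 9871 at day 12 in DMSO, with 3 genes higher. The sum of 6 fibroblast genes fell from 1463 and 1331 to 281.7 and 292.3 FPKM, with 4 genes lower and 1 higher, and 5 of 8 epicardial and mesothelial genes were lower. Their part in the fall of the HOX genes was not tested.

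**Figure D2:**
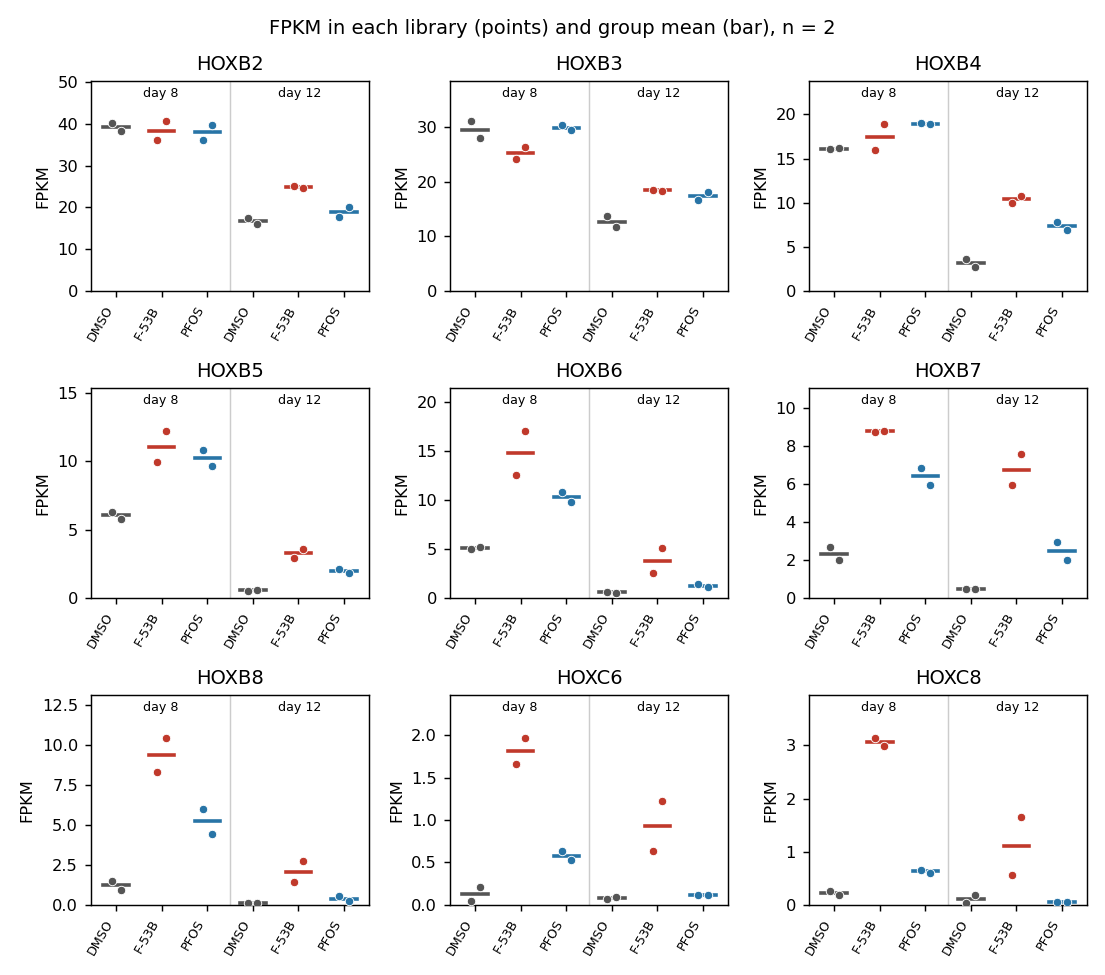
FPKM of 9 HOX genes in each of the 12 libraries (points) with the group mean (bar, n = 2) by group on the x axis, each panel with its own y axis from 0. HOXB2 and HOXB3 differed mainly between the days, while HOXB5 to HOXB8 stood higher in both exposed groups at day 8.

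At day 8, HOXB5 to HOXB8 were higher with F-53B than with DMSO, and HOXB1 to HOXB4 did not pass the test. Of the 8 tested HOXB genes, 4 were thus called higher. The share of all tested genes called higher in this comparison was 23.5%. HOXC6 and HOXC8 also passed, but they entered the test only through F-53B libraries and are not counted beside that share.

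HOXB2 was at 36.05 and 40.59 FPKM under F-53B, overlapping DMSO (log2 change −0.03, 95% interval −0.23 to 0.16). HOXB3, at 24.17 and 26.38 FPKM, lay below both DMSO libraries without passing the test (−0.21, −0.40 to −0.02, adjusted p = 0.06583). HOXB4, at 15.95 and 18.92 FPKM, overlapped DMSO (0.10, −0.14 to 0.34). HOXB1, at 0.63 and 0.69 FPKM, also lay below both DMSO libraries (−0.43, adjusted p = 0.1063). Its difference passed the test only without DMSO replicate 2 (−0.72, adjusted p = 0.02467), and over its alternatives the adjusted p ran from 0.02467 to 0.2686.

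From HOXB5 onwards both F-53B libraries stood above both DMSO libraries, and the difference widened with paralogue number. HOXB5 was at 9.90 and 12.21 FPKM (log2 change 0.77, SE 0.122, adjusted p = 0.000447). HOXB6, a gene of trunk mesoderm, was at 12.54 and 17.02 FPKM (1.36, SE 0.216, adjusted p = 0.0005779). HOXB7 was at 8.77 and 8.82 FPKM (1.56, SE 0.152, adjusted p = 2.34e-05).

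Of these 4, HOXB8 showed the widest separation, at 8.33 and 10.45 FPKM against 1.49 and 0.94 (2.23, SE 0.217, adjusted p = 2.75e-05). The ratios of group means were 1.83 for HOXB5, 2.90 for HOXB6, 3.76 for HOXB7 and 7.73 for HOXB8. HOXB6 was above HOXB5 in both F-53B libraries, so the fall of level with paralogue number seen in DMSO was not kept. HOXB2 to HOXB8 fell in strict order in 3 of the 12 libraries, all of them DMSO.

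The middle of HOXC was detected above 1 FPKM in cultures given F-53B only. HOXC6 was at 1.66 and 1.97 FPKM against 0.04 and 0.21 in DMSO (log2 change 1.33). HOXC8 was at 3.14 and 2.98 FPKM against 0.26 and 0.18 (1.74). Both entered the test only through F-53B libraries. For F-53B against DMSO or PFOS they are therefore described by levels and log2 changes. With 0.1 in place of 1 added to each value, the log2 changes were 3.20 for HOXC6 and 3.31 for HOXC8, since the DMSO levels lie far below 1 FPKM. The sum of HOXC4 to HOXC8 was 6.03 and 6.10 FPKM under F-53B against 0.41 and 0.50 in DMSO.

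With PFOS at day 8, the middle of HOXB was again higher than with DMSO. HOXB5 to HOXB8, 4 of the 8 tested HOXB genes, passed the test, where 3.69% of all tested genes were called higher. This comparison and the one with F-53B share their DMSO libraries, so the 2 are not independent. HOXB2 was at 36.11 and 39.68 FPKM and HOXB3 at 30.29 and 29.38, both overlapping DMSO, with 95% intervals of the log2 change from −0.24 to 0.14 and from −0.17 to 0.21. HOXB4, at 19.01 and 18.94 FPKM, was above both DMSO libraries without passing the test (0.22, adjusted p = 0.254), and HOXB1 was at 1.59 and 0.72.

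HOXB5 was at 10.81 and 9.65 FPKM under PFOS (log2 change 0.67, SE 0.122, adjusted p = 0.008835), HOXB6 at 10.83 and 9.75 (0.89, SE 0.216, adjusted p = 0.03471), HOXB7 at 6.88 and 5.96 (1.16, SE 0.152, adjusted p = 0.001849) and HOXB8 at 5.99 and 4.46 (1.49, SE 0.217, adjusted p = 0.003152). All 4 lay above both DMSO libraries. The calls of HOXB7 and HOXB8 held in every alternative run. HOXB5 lost its call without DMSO replicate 2 (adjusted p = 0.1009) and without PFOS replicate 1 (0.09762), with a range from 0.01082 to 0.1009 over its alternatives. HOXB6 lost it without any 1 of the 4 libraries compared, with 0.1 added in place of 1 and with no filter on low values, with adjusted p from 0.01132 to 0.2228 over its alternatives.

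HOXC6, at 0.63 and 0.53 FPKM, and HOXC8, at 0.66 and 0.60, were above both DMSO libraries under PFOS but below 1 FPKM. Their log2 changes of 0.49 (adjusted p = 0.07356) and 0.42 (adjusted p = 0.2272) did not pass the test. HOXC6 did so with 0.1 added in place of 1 (log2 change 1.70, adjusted p = 0.03045, within 0.03045 to 0.3132 over its alternatives).

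**Figure D3:**
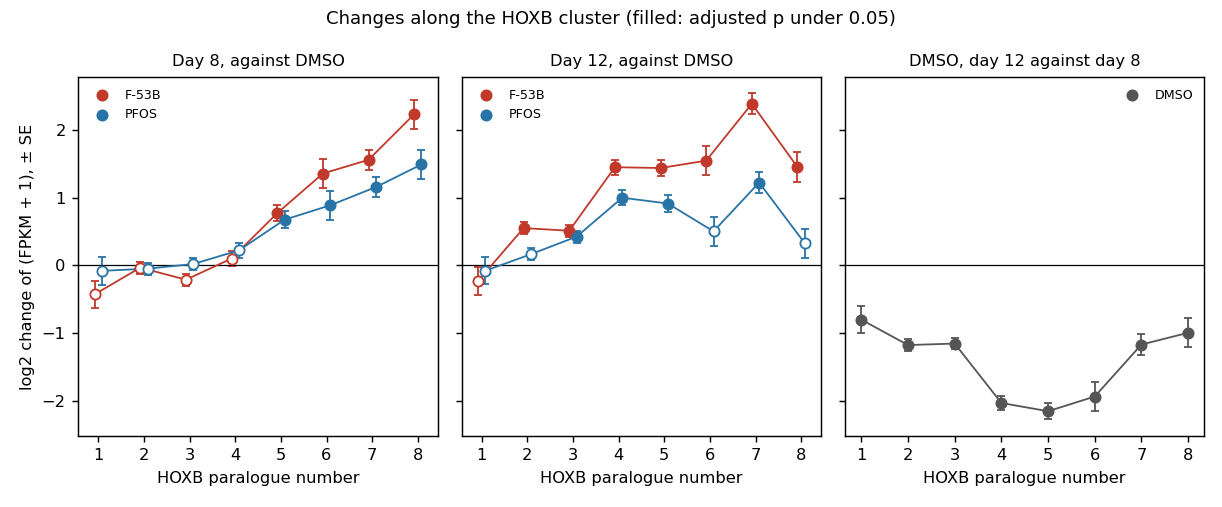
Change in log2(FPKM + 1), with its SE, against HOXB paralogue number for F-53B and PFOS at day 8 (left) and day 12 (middle) and for DMSO from day 8 to day 12 (right), with filled points at an adjusted p under 0.05. At day 8 no change from HOXB1 to HOXB4 passed the test (between −0.43 and 0.22), and at HOXB8 the changes were 2.23 and 1.49, and at day 12 both peaked at HOXB7 on this scale.

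Markers of other cells differed between the same groups at day 8. All 8 cardiomyocyte genes were lower under F-53B, with sums of 1248 and 1191 FPKM against 5421 and 7182 in DMSO. Epicardial and mesothelial genes were higher, 7 of 8, with sums of 497.3 and 539.1 against 175.6 and 143.02 FPKM, and of 6 genes of the posterior second heart field 5 were higher and 1 lower. Under PFOS none of the 8 cardiomyocyte genes passed the test, but their sums, 3197 and 4857 FPKM, lay below both DMSO libraries. Their median log2 change under PFOS was −0.604, against 0.032 over all tested genes. Of the 8 epicardial genes 3 were higher under PFOS, as were 3 of the 6 posterior second heart field genes. The 6 fibroblast genes summed to 2487 and 2564 FPKM under F-53B, with 5 higher and 1 lower, and to 1914 and 1517 under PFOS, with 3 higher, against 1463 and 1331 in DMSO. Of 6 endothelial genes 4 were lower under F-53B and 3 under PFOS. Of 5 tested endoderm and hepatic genes 4 were lower and 1 higher under F-53B, and 1 was lower under PFOS. The part of all these markers in the HOX differences was not tested.

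Markers of neural and somite cells, which also carry HOX RNA, were low. Over 8 markers of the neural tube and neural crest the sum ran from 2.85 to 8.31 FPKM, with both ends at day 12, in DMSO and in F-53B. SOX1 and FOXD3 were each at 0 in both libraries of 5 of the 6 groups, and 2 of the 8 were tested. Under F-53B, SOX10 was lower at day 12, at 0.93 and 0.40 FPKM against 2.09 and 1.86 in DMSO. Of 6 paraxial mesoderm and somite genes 5 had values, and their sum ran from 1.97 to 4.6 FPKM. Of the 2 tested, 1 was higher and 1 lower under F-53B on each day. Over 6 genes of limb and trunk mesenchyme the sum ran from 9.42 to 25.63 FPKM. It was 10.71 and 9.42 FPKM in DMSO at day 8 against 20.63 and 22.16 under F-53B, with 3 of 5 tested genes higher, and its part in the result was not tested.

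At day 12, F-53B cultures were higher than DMSO at 7 of the 8 tested HOXB genes, all but HOXB1. The share of all tested genes called higher was 28.2%. HOXC6 and HOXC8 also passed and, for the reason given above, are kept apart from that count. Summed HOXB was 66.91 and 73.25 FPKM under F-53B against 36.76 and 32.58 in DMSO. HOXB2 was at 25.22 and 24.76 FPKM (log2 change 0.55, SE 0.088, adjusted p = 0.0002572) and HOXB3 at 18.51 and 18.36 (0.51, SE 0.087, adjusted p = 0.0004024). At day 8 neither had passed the test, and at day 12 both lay above both DMSO libraries. HOXB1 was at 0.12 and 0.06 FPKM under F-53B and 0.24 and 0.18 under PFOS, below both DMSO libraries in each case, without passing the test (log2 changes −0.23 and −0.08).

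HOXB4 was at 10.03 and 10.82 FPKM against 3.62 and 2.78 in DMSO (log2 change 1.45, SE 0.109, adjusted p = 9.313e-07). HOXB5 was at 2.95 and 3.61 FPKM against 0.54 and 0.61 (1.44, adjusted p = 2.31e-06). HOXB7 was at 5.94 and 7.6 FPKM against 0.45 and 0.50 (2.39, SE 0.152, adjusted p = 3.005e-07). HOXB7 thus stood above HOXB5 and HOXB6 in both F-53B libraries, the opposite of their order in DMSO at day 8. HOXB6, at 2.55 and 5.07 FPKM (1.55, adjusted p = 0.0001278), and HOXB8, at 1.40 and 2.77 (1.45, adjusted p = 0.0001846), were also higher, with wider gaps between replicates.

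As ratios of group means at day 12, F-53B stood above DMSO by 1.49 times for HOXB2, 1.45 for HOXB3, 3.26 for HOXB4, 5.70 for HOXB5, 6.46 for HOXB6, 14.3 for HOXB7 and 20.9 for HOXB8. The last 2 rest on DMSO levels of 0.5 FPKM or less. The ratio thus rose with paralogue number from HOXB3 to HOXB8, while the log2 change with 1 added was largest at HOXB7. With 0.1 added, the log2 changes of HOXB7 and HOXB8 were 3.57 and 3.37.

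HOXC6 was at 0.63 and 1.22 FPKM under F-53B at day 12 against 0.07 and 0.09 in DMSO (log2 change 0.82). HOXC8 was at 0.56 and 1.65 FPKM against 0.03 and 0.19 (0.88). Replicate 2 was the higher in both. Without it, the change of HOXC8 was 0.49. That library also stood apart from replicate 1 in its markers, with 1093 against 2450 FPKM summed over the cardiomyocyte genes and 705.2 against 545.7 over the epicardial genes.

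PFOS cultures at day 12 were higher than DMSO at HOXB3, HOXB4, HOXB5 and HOXB7, 4 of the 8 tested HOXB genes. The share of all tested genes called higher was 6.67%. HOXB4 was at 7.83 and 6.90 FPKM against 3.62 and 2.78 (log2 change 0.999, SE 0.109, adjusted p = 0.0002377), HOXB5 at 2.14 and 1.80 (0.91, adjusted p = 0.0007909) and HOXB7 at 2.95 and 2.0 (1.22, adjusted p = 0.0005117). HOXB3 was at 16.59 and 18.02 FPKM (0.42, adjusted p = 0.009317), which did not pass once DMSO replicate 2 was left out (0.32, adjusted p = 0.1161, with 0.008597 to 0.1161 over its alternatives).

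Other HOXB genes lay above both DMSO libraries under PFOS without passing the test. HOXB2 was at 17.65 and 20.21 FPKM (log2 change 0.16, adjusted p = 0.2542), HOXB6 at 1.43 and 1.08 (0.50, adjusted p = 0.1608) and HOXB8 at 0.53 and 0.24 (0.32, adjusted p = 0.365). HOXB6 passed with 0.1 added (0.97, adjusted p = 0.04426) and in a fit of the PFOS and DMSO libraries of that day alone (adjusted p = 0.04531), within a range from 0.04426 to 0.4688 over its alternatives. HOXC6, at 0.11 and 0.11 FPKM, and HOXC8, at 0.05 and 0.05, were near the level of DMSO.

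At day 12 the marker sums again differed with exposure. Under F-53B all 8 cardiomyocyte genes were lower and all 8 epicardial and mesothelial genes higher. Under PFOS the cardiomyocyte sums were 9043 and 8281 FPKM against 9941 and 9871 in DMSO, with no gene passing the test, while 6 of 8 epicardial genes were higher, with sums of 149.9 and 155.8 against 57.26 and 59.52. WT1, an epicardial transcription factor gene, was at 77.55 and 102.7 FPKM under F-53B, 19.44 and 20.82 under PFOS and 4.06 and 4.65 in DMSO. The fibroblast genes summed to 1366 and 1705 FPKM under F-53B, with 6 of 6 higher, and to 702.5 and 602.7 under PFOS, with 3 higher, against 281.7 and 292.3 in DMSO. Of the 6 endothelial genes 5 were lower and 1 higher under F-53B, and 1 was lower under PFOS. The endoderm and hepatic genes were lower under F-53B, 5 of the 5 tested, with 2 lower under PFOS. The part of these shifts in the HOX differences was not tested.

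**Figure D4:**
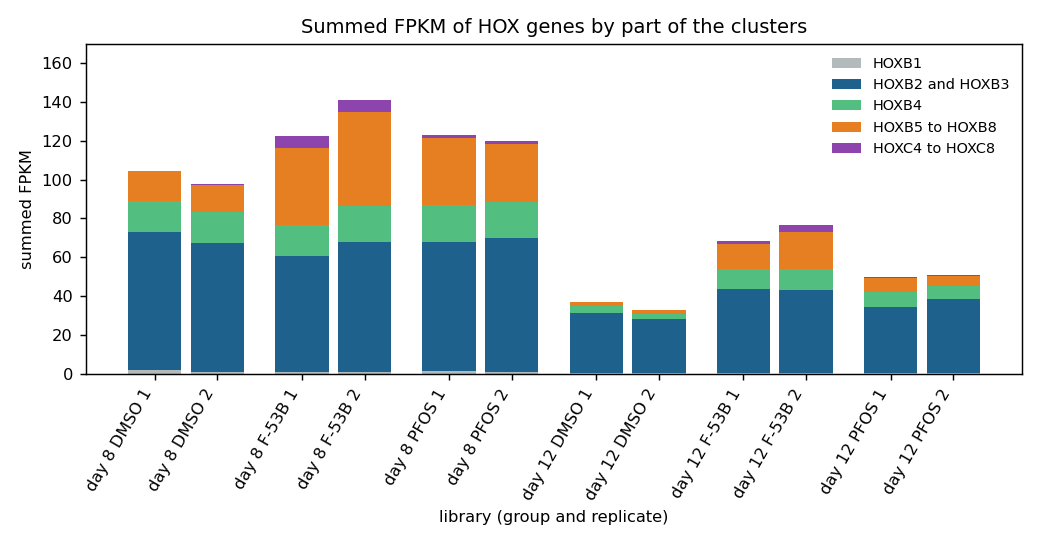
Summed FPKM of HOXB1, of HOXB2 with HOXB3, of HOXB4, of HOXB5 to HOXB8 and of HOXC4 to HOXC8, stacked for each of the 12 libraries. HOXB5 to HOXB8 summed to 15.46 and 13.92 FPKM in DMSO and to 39.54 and 48.50 under F-53B at day 8, while HOXB2 with HOXB3 stayed between 60.22 and 71.06 in all day 8 libraries.

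The 2 compounds, at the same dose and days, were compared with each other as 1 pair. At day 8, F-53B stood above PFOS at HOXB8, 1 of the 8 tested HOXB genes, with 13.3% of all tested genes called higher. HOXC6 and HOXC8, in the test only through F-53B libraries, passed too. The differences on the log2 scale were 0.74 for HOXB8 (SE 0.217, adjusted p = 0.0272), 0.83 for HOXC6 and 1.32 for HOXC8. HOXB8 lost the call with 0.1 in place of 1 added (0.84, adjusted p = 0.102) and without F-53B replicate 1 (adjusted p = 0.05251), F-53B replicate 2 (0.1763) or PFOS replicate 2 (0.2043), within a range from 0.01231 to 0.2043 over its alternatives.

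No difference between the compounds was found at HOXB2, HOXB4 or HOXB5 at day 8, with 95% intervals of −0.18 to 0.21, −0.36 to 0.12 and −0.17 to 0.37. These intervals do not show that the compounds act alike. The differences at HOXB6, 0.47 (−0.01 to 0.95, adjusted p = 0.1261), HOXB7, 0.40 (0.07 to 0.74, adjusted p = 0.06748), and HOXB3, −0.23 (−0.42 to −0.04, adjusted p = 0.06594), did not pass. These 3 passed in a fit of the F-53B and PFOS libraries of that day alone, HOXB6 and HOXB7 as higher and HOXB3 as lower.

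At day 12, F-53B stood above PFOS at 6 of the 8 tested HOXB genes, where 23.9% of all tested genes were called higher. The exceptions were HOXB1 and HOXB3, the latter with a difference of 0.09 (95% interval −0.10 to 0.28). The differences were 0.39 for HOXB2, 0.45 for HOXB4 and 0.53 for HOXB5, and rose to 1.05 for HOXB6, 1.17 for HOXB7 (adjusted p = 0.0001031) and 1.13 for HOXB8. HOXC6 and HOXC8, in the test only through F-53B libraries, differed by 0.78 and 0.95. Without F-53B replicate 2 the differences were 0.66 for HOXB6 and 0.57 for HOXC8.

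Ratios within a library do not depend on how libraries are scaled to each other. For each 100 FPKM of HOXB2 with HOXB3, HOXB5 to HOXB8 together gave 21.76 and 20.98 FPKM in DMSO, 65.66 and 72.42 under F-53B and 51.97 and 43.18 under PFOS at day 8. At day 12 they gave 5.63 and 6.22 in DMSO, 29.36 and 44.18 under F-53B and 20.59 and 13.39 under PFOS. On both days the 3 groups did not overlap, with F-53B highest and DMSO lowest. For each 100 FPKM of HOXB2, HOXB4 gave 40.11 and 42.26 FPKM in DMSO at day 8 and 20.77 and 17.27 at day 12. Under F-53B it gave 44.24 and 46.61 at day 8 and 39.77 and 43.70 at day 12. Under PFOS it gave 52.64 and 47.73 at day 8 and 44.36 and 34.14 at day 12. For HOXB4, both exposed groups lay above DMSO on both days, and at day 12 they overlapped each other.

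Whether the effect of a compound differed between the days was tested as the day 12 difference from DMSO minus the day 8 difference. For F-53B, HOXB2, HOXB3, HOXB4, HOXB5 and HOXB7 passed, 5 of the 8 tested HOXB genes, all with the larger effect at day 12, where 9.35% of all tested genes did so. HOXB4 had the largest shift, 1.35 (SE 0.154, adjusted p = 0.0001923), from 0.10 at day 8 to 1.45 at day 12. HOXB3 shifted by 0.72 (adjusted p = 0.002337) and HOXB2 by 0.58 (adjusted p = 0.008292), and these 3 calls held in every alternative run.

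HOXB5 shifted by 0.67 (adjusted p = 0.02237) and HOXB7 by 0.83 (adjusted p = 0.02243). Their calls were lost when 1 library was left out, for HOXB5 any of DMSO replicate 1 (0.07518) and F-53B replicate 1 (0.103) of day 8, both DMSO replicates (0.07695 and 0.05787) and F-53B replicate 2 (0.07008) of day 12. For HOXB7 the same held for these 5 libraries and for F-53B replicate 2 of day 8, with adjusted p from 0.06297 to 0.0843. Over all alternatives the adjusted p ran from 0.001071 to 0.103 for HOXB5 and from 0.002228 to 0.0843 for HOXB7.

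For HOXB8 the sign of the shift depended on the value added. It gave −0.78 with 1 added (adjusted p = 0.1099) and 0.50 with 0.1 added (adjusted p = 0.5546). HOXC6 gave −0.51 (adjusted p = 0.1302) and HOXC8 −0.86 (adjusted p = 0.05598), and with 0.1 added they gave −0.75 (adjusted p = 0.4272) and −0.85 (adjusted p = 0.4284). Without F-53B replicate 2 of day 12, HOXB8, HOXC6 and HOXC8 shifted by −1.11, −0.73 and −1.24, with adjusted p of 0.01886, 0.03034 and 0.001374, against ranges over the alternatives that reach 0.5546, 0.4272 and 0.4284.

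For PFOS, 1 tested member, HOXB4, passed the same test, where 0.611% of all tested genes did so with the larger effect at day 12. Its shift was 0.78 (SE 0.154, adjusted p = 0.03309). The call was lost in 9 of 15 alternatives, among them leaving out either DMSO or either PFOS replicate of day 8 (adjusted p = 0.08831, 0.1052, 0.08272 and 0.08504), DMSO replicate 2 of day 12 (0.1507) or PFOS replicate 1 of day 12 (0.124). The adjusted p ran from 0.02673 to 0.1507 over the alternatives. HOXB8 shifted by −1.17 (SE 0.307, adjusted p = 0.09972) and passed only in a fit of the libraries compared (adjusted p = 0.04645, within 0.04645 to 0.4641 over its alternatives).

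Among the members too low to test, HOXC4 and HOXC9 were highest under F-53B and lowest in DMSO at day 8. HOXC4 was at 0.88 and 0.84 FPKM under F-53B, 0.35 and 0.28 under PFOS and 0.07 and 0.11 in DMSO at day 8, and at 0.28 and 0.49 under F-53B at day 12, where DMSO was listed at 0 in both libraries. HOXC5 was at 0.35 and 0.31 FPKM under F-53B at day 8 and at most 0.11 in any other group. HOXC9 was at 0.28 and 0.28 under F-53B, 0.18 and 0.18 under PFOS and 0 and 0.04 in DMSO. HOXC10, at 0.25 and 0.48 FPKM under F-53B and 0.12 and 0 in DMSO at day 8, reached 0.66 in F-53B replicate 2 of day 12, the highest value of any of the 14 members of paralogue groups 9 to 13 with values.

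HOXB9, next to HOXB8, was at 0.20 and 0.23 FPKM under F-53B at day 8 and 0.17 and 0.20 at day 12, and at most 0.16 in other groups. With no filter on low values, HOXB9, HOXC4, HOXC5 and HOXC9 also passed for F-53B at day 8, with log2 changes of 0.18, 0.77, 0.38 and 0.33. In that fit HOXC9 also passed for PFOS at day 8 (0.21, adjusted p = 0.02614), and HOXB9, HOXC4 and HOXC9 for F-53B at day 12. All of these rest on values under 1 FPKM, near the floor of the files. HOXA members reached at most 0.19 FPKM, in HOXA13, and HOXD members at most 0.09. HOXB13, HOXC11 and HOXC13 reached at most 0.12. None of the 36 was listed at 0 in every library.

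HOXC4 and HOXC5 share a start in RefSeq (GRCh38.p14), and the window before it is shown for that reason. In the GENCODE annotation used above, HOXC4 starts at 54016931 and HOXC5 at 54032853. Under PFOS at day 8, HOXC4 lay above both DMSO libraries, at 0.35 and 0.28 FPKM against 0.07 and 0.11. HOXC5, at 0.04 and 0.11 FPKM against 0.04 and 0, overlapped them. Whether these genes share a promoter in these cultures was not tested. It spans chr12:54016638-54016887 on the plus strand, the 250 bases before the start, read 5′ to 3′, with capitals at matches of TTTAT on either strand.
HOXC4 and HOXC5: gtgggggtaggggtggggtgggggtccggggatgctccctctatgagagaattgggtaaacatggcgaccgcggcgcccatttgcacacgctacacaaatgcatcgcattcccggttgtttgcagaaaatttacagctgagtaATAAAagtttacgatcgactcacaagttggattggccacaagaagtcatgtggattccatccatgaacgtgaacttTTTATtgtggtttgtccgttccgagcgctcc
TTTAT, letters found in sites of the caudal-type homeobox factors, matched at 2 places, and 32.7% of 35116 promoter windows of the same length hold it. TGATNNAT, found in sites of HOX with PBX (6.5% of windows), CTTTGA of TCF and LEF factors (11.2%), AGGTCA of retinoic acid receptors (12.1%) and TATAAA (10.7%) were also searched on both strands and had no match in this window. TATAAA holds TTTAT on its other strand, so matches of the 2 overlap.

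Some HOX values are uncertain because exons are shared. In GENCODE 29, HOXB3 shares 433 exonic bases with HOXB6 (16.6% of HOXB6) and 159 with HOXB4, and HOXC4 shares 484 with HOXC6 (17.8% of HOXC4). On the opposite strand, HOXB-AS3 covers 425 exonic bases of HOXB6 and 73 of HOXB5, and HOXB-AS1 covers 374 of HOXB3. Whether strand was used in counting is not given in the sources used here, so reads of these pairs cannot be told apart. Symbols of 20 non-coding and antisense genes of the HOX clusters, HOXB-AS1 and HOXB-AS3 among them, were looked for. None was among the listed genes, so their levels are unknown here.

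The genes of 4 related pathways are given by counts, to be read beside the shares over all tested genes. Under F-53B 20.5% of all tested genes were called lower at day 8 and 28% at day 12, beside the 23.5% and 28.2% called higher. Under PFOS 3.08% were called lower at day 8 and 5.62% at day 12, beside 3.69% and 6.67% called higher. The median log2 change over all genes was 0.017 and 0.001 under F-53B and 0.032 and 0.015 under PFOS at days 8 and 12.

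The TALE cofactors of HOX proteins were expressed throughout, with all 9 tested. Under F-53B 3 of the 9 rose at day 8 and 5 at day 12. Under PFOS none rose at day 8 and 3 at day 12. Their median log2 change was 0.04 at day 8 and 0.34 at day 12 under F-53B, and 0.005 and 0.09 under PFOS. In DMSO 6 of 9 fell from day 8 to day 12.

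PBX3, a homeodomain partner of HOX proteins, was highest under F-53B and lowest in DMSO on both days. In DMSO it was at 153.1 and 117.5 FPKM at day 8 and 31.92 and 32.92 at day 12. Under F-53B it was at 224.9 and 229.4 FPKM at day 8 (log2 change 0.76, adjusted p = 0.001804) and at 108.1 and 142.1 at day 12 (1.90, adjusted p = 1.569e-06). Under PFOS it was at 190.2 and 182.7 FPKM at day 8 without passing the test (0.47, adjusted p = 0.08063), and at day 12 it was at 53.48 and 66.25 FPKM (0.86, adjusted p = 0.003821). MEIS3 rose under F-53B on both days, by 0.71 and 1.18, and PKNOX2 rose at day 12, by 1.10.

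The retinoic acid pathway, the best known inducer of 3′ HOX genes, had members that moved in both directions. Of its 18 genes, 14 were tested. Under F-53B 3 rose and 5 fell at day 8, and 4 rose and 6 fell at day 12. Under PFOS 1 rose and 3 fell at day 8, and 5 rose and 2 fell at day 12. The list's median log2 change was −0.13 at day 8 and 0.01 at day 12 under F-53B, and −0.09 and 0.07 under PFOS.

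ALDH1A2, which makes retinoic acid and also stands in the epicardial list, was under 1 FPKM in all day 8 libraries. At day 12 it was at 27.84 and 45.04 FPKM under F-53B (log2 change 4.49, SE 0.179, adjusted p = 3.152e-08), 3.07 and 2.71 under PFOS (1.26, adjusted p = 0.00112) and 0.57 and 0.67 in DMSO. RARA, a retinoic acid receptor gene, rose under F-53B by 0.38 at day 8 and 1.12 at day 12. RDH10, which makes retinal, rose by 0.72 and 1.69. CRABP2, which binds retinoic acid in the cytoplasm, was at 8.58 and 7.61 FPKM under F-53B at day 8 against 145.4 and 172.5 in DMSO (−4.13, adjusted p = 7.171e-06). RARB, a receptor gene that retinoic acid induces, fell by 1.70 at day 8 and 1.16 at day 12 under F-53B. CYP26A1, which degrades retinoic acid and is a common readout of it, was at most 0.03 FPKM.

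Of 16 regulators of the caudal body axis, 13 had values and 6 were tested. Under F-53B 3 of the 6 fell at day 8 and 4 at day 12, under PFOS 1 fell on each day, and none was called higher. The median log2 change was −0.26 at day 8 and −0.49 at day 12 under F-53B, and −0.06 and −0.15 under PFOS. FGF8, a growth factor of the caudal end and of the anterior heart field, was at 15.02 and 16.77 FPKM in DMSO at day 8, 1.13 and 0.96 under F-53B (log2 change −3.05, adjusted p = 2.79e-06) and 4.85 and 7.17 under PFOS (−1.29, adjusted p = 0.001505). GDF11, which acts on the switch to posterior HOX genes, fell under F-53B at day 12 by 0.53, and TBX6, a paraxial mesoderm gene, by 0.48 at day 8 and 0.57 at day 12. CDX1 and CDX2, the caudal-type homeobox genes with values, stayed under 1 FPKM in every library and were not tested. CDX1 was at 0.38 and 0.42 FPKM under F-53B against 0.13 and 0.33 in DMSO at day 8. At day 12 it was at 0.76 and 0.66 against 0.21 and 0.03. CDX2 was above DMSO under F-53B at day 8, at 0.43 and 0.50 against 0.10 and 0.20. It was below at day 12, at 0.07 and 0.12 against 0.39 and 0.34.

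Chromatin regulators that keep HOX clusters silent (Polycomb) or active (Trithorax) were all 22 tested. Under F-53B 3 rose and 6 fell at day 8, and 8 rose and 5 fell at day 12. Under PFOS 1 fell at day 8, and 1 rose at day 12. The median log2 change was 0.04 at day 8 and 0.11 at day 12 under F-53B, and 0.01 and 0.04 under PFOS. KDM6A, which removes the Polycomb mark from histone H3, was at 35.94 and 35.62 FPKM in DMSO and 18.65 and 18.32 under F-53B at day 8 (log2 change −0.92, adjusted p = 0.0001583), and it fell by 1.02 at day 12. PHC2, a Polycomb subunit gene, rose by 0.37 and 0.69. PCGF2, another, was at 34.02 and 36.91 FPKM under F-53B and 20.23 and 20.49 in DMSO at day 12 (0.77, adjusted p = 6.493e-06).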

How the data were processed

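The 12 RNA libraries were read on a BGISEQ-500. Per the file headers, the deposited values are FPKM per gene. Per the submitters' processing notes, HISAT, Bowtie2, RSEM and GRCh38 patch p11 were used. The order of steps, tool versions, strand setting and any scaling between libraries are not given in the sources used here. Annotation rows with no gene identifier were left out.

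Values were taken as log2(FPKM + 1) of the FPKM that the authors deposited, with no further scaling. For 14080 genes (at least 1 FPKM in at least 2 libraries), 1 mean per group was fitted over all 12 libraries (6 residual degrees of freedom) by limma 3.58.1 (R 4.3.3), using a mean-variance trend and robust moderation. The fit was tested on simulated data with 200 changed genes. Adjusted p-values are Benjamini-Hochberg over those genes in each of 9 comparisons, called under 0.05. The alternatives run were another pseudocount (0.1), filters, scalings, a fit of only the compared libraries, a replicate block and each library left out. Every HOX gene with a group mean of at least 5 FPKM is named with all its values, other tested members with group values, and up to 3 genes a pathway list by smallest adjusted p under F-53B. HOXB9, HOXC4, HOXC5, HOXC9, HOXC10, CRABP2, RARB, CYP26A1, CDX1, CDX2, SOX10, TNNT2 and WT1 fall outside this rule and were named after their values were seen. The members and lists were chosen with earlier results of these data known. Of the 39 members, 39 matched GENCODE 29, and 20 had an entry in the RefSeq promoter table. Some results on the cofactor and marker lists are not reported here.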

Additional observations from a re-analysis of the deposited data

Results flagged for a closer look

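The effect of F-53B, as its log2 difference from DMSO, differed between the days at 5 of the 8 tested HOXB genes by the test of that difference. All 5 had the larger effect at day 12, as did 9.35% of all tested genes. HOXB2 had a day 12 effect larger than that of day 8 by 0.58 (adjusted p = 0.008292). HOXB3 differed by 0.72 (adjusted p = 0.002337). HOXB4 differed by 1.35 (adjusted p = 0.0001923). HOXB5 differed by 0.67 (adjusted p = 0.02237), and HOXB7 by 0.83 (adjusted p = 0.02243), and both calls were lost when some single libraries were left out. The effect of PFOS differed between the days at HOXB4, by 0.78 (adjusted p = 0.03309), a call lost in 9 of 15 alternatives. Of all tested genes, 0.611% were called with the larger PFOS effect at day 12.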

How the results depend on the processing

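Over 10 tested genes and 9 comparisons, 48 of 90 gene and comparison pairs were called, and 40 of the 48 kept the call in every alternative run. No called pair reversed. The 8 that lost a call at least once are named with their values in the report. The counts in this paragraph take in HOXC6 and HOXC8 wherever they were tested, although both entered the main test only through F-53B libraries. They also take in HOXB1, which entered it only through day 8 libraries. Shares of all genes called under each setting are not given here, so these counts describe only how stable the calls were. With no filter on low values 10 HOX genes were called for F-53B at day 8, against 6. For F-53B against PFOS at day 8 the count was 5 with no filter, 1 with a minimum of 5 FPKM and 6 with only the libraries compared, against 3. For the PFOS effect between days it was 0 with no filter, 0 with equal FPKM totals and 2 with only the libraries compared, against 1. Leaving out each library gave 2 to 3 calls for PFOS at day 8 (against 4, and 2 without DMSO replicate 2 or PFOS replicate 1), 3 to 6 for the F-53B effect between days (against 5) and 0 to 1 for the PFOS effect. Replicate numbers were not used to pair the samples in the main fit. Correlations of replicate deviations between groups ran from −0.378 to 0.186 with 3 of 15 over 0.1. These values do not show whether the replicates were matched. With a replicate block the PFOS effect between days had 0 calls, and the count for the other 8 comparisons was unchanged. The summed HOXB level of PFOS at day 12 was 47.74 FPKM with equal totals and 49.11 with median-of-ratios scaling.

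Some uncalled values changed sign. HOXB2 under F-53B at day 8 was 0.033 with equal totals, HOXB3 under PFOS at day 8 was −0.0155 with median-of-ratios scaling, and the effects between days with 0.1 added were −0.23 for HOXB1 and 0.50 for HOXB8 under F-53B and −0.15 for HOXB1 under PFOS, the last being −0.0055 with equal totals. Leaving out each library gave, for F-53B at day 8, −0.12 to 0.0485 for HOXB2 and −0.0165 to 0.22 for HOXB4. For PFOS at day 8 it gave −0.37 to 0.21 for HOXB1, −0.12 to 0.0166 for HOXB2 and −0.0523 to 0.0889 for HOXB3, and at day 12 −0.18 to 0.0277 for HOXC8. Between the compounds at day 8 it gave −0.0686 to 0.0982 for HOXB2 and −0.0411 to 0.24 for HOXB5. Over time in DMSO it gave −0.16 to 0.0544 for HOXC6. For the effects between days it gave −0.20 to 0.58 for HOXB6 under F-53B, and −0.29 to 0.29 for HOXB1 and −0.13 to 0.27 for HOXB7 under PFOS. The cause of these changes was not tested. Depth is unknown, and values under 1 FPKM limit what can be read from HOXC.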
